A study of Ascaris suum with 12 samples.

Results

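The spermatid library and the oocyte library of the roundworm Ascaris suum were set against each other across all 61820 transcripts of 18025 genes, to give what the last region of each germline holds and what both hold. The male library came from spermatids of adult males and the female library from oocytes of adult females. Both came from worms of a North American wild type strain, collected from pig intestines, dissected and frozen. They are 2 of the 10 germline libraries of the series, in which each sex gave 5 libraries along the gonad. Before spermatids, the male gonad was sampled as a mitotic zone, a zone of spermatogenesis, a zone after meiosis and the seminal vesicle. The oocyte was preceded in the female by a mitotic zone, by early and late pachytene, and by diplotene. There was 1 library per region, so differences describe these libraries, no test could be made and no error can be given. The number of worms per library is not stated.

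Nematode spermatids shed much of the machinery of a normal cell and become crawling, amoeboid sperm whose movement rests on polymers of major sperm protein rather than on actin. Nematode oocytes instead store the messages and proteins that build the eggshell and run the first divisions, and they are enclosed by sheath and duct cells that contract and secrete. Many nematode messages receive a common spliced leader at the front, and Ascaris also discards part of its germline DNA, with some genes in it, from body cells of the early embryo.

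Expression was given as RPKM, reads per kilobase of transcript scaled to the depth of the library, and comparisons used log2(RPKM + 1). A transcript was called higher or lower where the values differed at least 4-fold on that scale, a difference of 2 or more, and the higher value was at least 10 RPKM. It was called shared where both values were at least 10 RPKM and lay within 2-fold. The steps of the lowest values put the depth near 28000000 reads for spermatids and 23200000 reads for the oocyte, so that 10 RPKM over a transcript of the median length of 2598 nucleotides stands for about 729 reads in spermatids and 604 in the oocyte. Depth did not limit calls at that level, although counting error was not the only error and the spread between worms is unknown.

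Of the 61820 transcripts, 1970 from 741 genes were higher in spermatids (3.19%), 3230 from 1203 genes were lower (5.22%) and 2559 from 902 genes were shared (4.14%). At 10 RPKM or more stood 7567 transcripts in spermatids and 9160 in the oocyte. The 4128 transcripts at that level in both made up 54.6% of the spermatid transcripts and 45.1% of the oocyte transcripts. The median difference over all transcripts, spermatids minus oocyte, was -0.07 on the log2 scale. Scaling by the median ratio of 29788 transcripts, a factor of 0.235 on the log2 scale, gave 2343 higher and 2713 lower transcripts. It moved the median difference to 0.0, because differences between low values moved by less than the factor. In bulk samples, fewer cells of a type and less RNA per cell cannot be told apart.

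The labels were checked against marker lists. Across transcripts, log2 values of spermatids followed the seminal vesicle (r = 0.823) and the post-meiotic region (r = 0.808) most closely and spermatogenesis least (r = 0.499), below each female library, of which diplotene had r = 0.668 and the oocyte r = 0.593. Those of the oocyte followed diplotene most closely (r = 0.901). The 10 libraries share an annotation and a method, and transcripts of a gene share reads. Sperm messages marked the spermatid library as male germline, but they were far from their highest there, and cuticle collagens, which are known as products of the skin, were abundant in it. Ribosomal depletion used a kit made for mammals, and 13 of the 15 transcripts named for ribosomal DNA proteins (TAR1, ART2) were higher in spermatids, with highest values of 4398.2 in spermatids, 704.4 in the oocyte and 48335.9 in the seminal vesicle. The part of cuticle messages and of ribosomal RNA in the results was not tested.

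**Figure D1:**
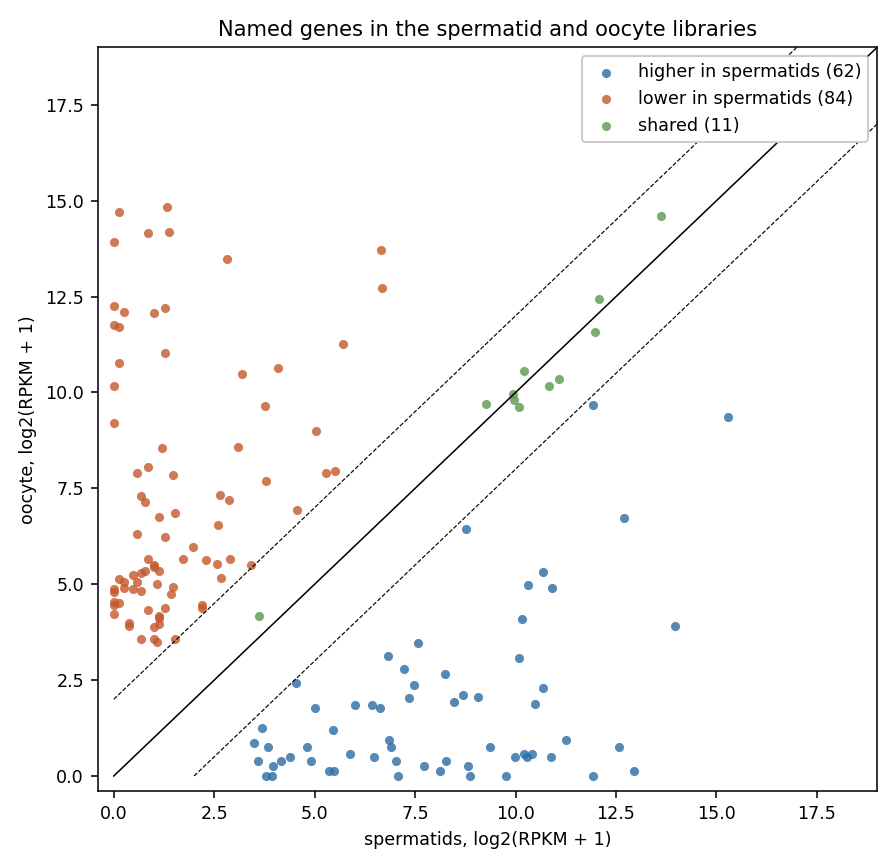
Values of the 157 named genes in spermatids (x axis) and oocyte (y axis), both as log2(RPKM + 1), 1 point per gene; the solid line marks equal values and the dashed lines a 4-fold difference. Genes were named for their size or abundance, so few points lie between the lines; 62 are higher in spermatids, 84 lower and 11 shared.

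Major sperm protein, the subunit of the sperm cytoskeleton, led the sperm genes that were higher in spermatids. The list for it held 131 transcripts of 49 genes, named for this protein or for its short form MSP, as in MSP-domain protein. Of these, 42 were higher in spermatids (32.1%), 8 were lower (6.11%) and none was shared. Only 42 transcripts of 20 genes carried the full name, and 6 of them were higher and 6 lower. Their medians were 1.45 RPKM in spermatids and 1.15 RPKM in the oocyte. AgE02_g017 reached 1656.7 RPKM in spermatids, against 38.6 RPKM in the oocyte. AgE02_g037, also an isoform beta, had 1268.0 RPKM in spermatids and 30.6 RPKM in the oocyte. The isoform alpha gene AgB02_g504 had 1142.6 RPKM in spermatids and 16.2 RPKM in the oocyte, a difference of 6.06 on the log2 scale. The copies are members of a gene family whose sequences were not compared here, so how the reads were split among them is uncertain. Among the 8 lower transcripts, AgB03_g482 had 0.7 RPKM in spermatids and 27.8 RPKM in the oocyte.

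These messages were past their peak. AgE02_g017 had 9162.0 RPKM in the mitotic region, 19599.5 in spermatogenesis, 14475.6 after meiosis, 205.1 in the seminal vesicle and 1656.7 in spermatids. The female libraries ran from 20.7 in the mitotic region through 19.4, 6.1 and 24.7 to 38.6 RPKM in the oocyte. Values were above 0 in every library of both sexes, but the male values are higher throughout and the lowest of them is the seminal vesicle. Each female value lay under 1% of the spermatogenesis value, and the source of the female reads was not tested. Among the 66 transcripts of the list with at least 100 RPKM in spermatogenesis, the spermatid value was a median 7.52% of the spermatogenesis value, between 0.854% and 10.2%. The oocyte value was a median 0.165% of it, and 60 of the 66 stood higher in spermatids than in the oocyte.

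The proteins that organise the sperm fibers followed the same order. Of 91 transcripts named for sperm or for major sperm protein fibers, 22 from 14 genes were higher and 1 was lower. The sperm-specific ZC168.6 gene AgR086_g007 had 537.1 RPKM in spermatids and 3.2 RPKM in the oocyte. Its neighbours AgR086_g004 and AgR086_g006, with the same name, had 411.7 and 354.6 RPKM in spermatids, against 3.3 and 2.8 RPKM in the oocyte. All 5 genes from AgR086_g003 to AgR086_g007 were called higher, and AgR086_g003, named MSP-domain protein 1, had 300.3 RPKM in spermatids and 5.3 RPKM in the oocyte. The motility protein mfp2, which in Ascaris sperm promotes fiber assembly, had 161.8 RPKM in spermatids and 3.1 RPKM in the oocyte (AgR008_g015). For the 27 transcripts of the list with 100 RPKM or more in spermatogenesis, the spermatid value was a median 3.99% of that value.

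Phosphatases and kinases of the male germline stood beside them. Of 928 phosphatase transcripts, 46 were higher in spermatids (4.96%) and 31 lower (3.34%), and 42 of the 46 peaked in spermatogenesis. PP1-named AgR017_g034, a serine/threonine phosphatase, had 84.6 RPKM in spermatids and 2.6 RPKM in the oocyte, after 1439.6 in spermatogenesis. AgR026_g069, another PP1 isozyme, had 19.8 RPKM in spermatids and 0.4 RPKM in the oocyte. With a minimum of 100 RPKM no phosphatase transcript stayed higher and 2 were lower. The tyrosine kinase Fer gene AgR049_g025 had 57.6 RPKM in spermatids and 0.5 RPKM in the oocyte. Kinases as a list had no direction that held: 73 were higher and 76 lower, and the balance turned under 7 settings, with 99 higher and 68 lower after median-ratio scaling.

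A further group was high both in spermatids and in the seminal vesicle, the sac that stores sperm. Of the 1970 higher transcripts, 536 lay within 2-fold of the seminal vesicle (27.2%), and 173 transcripts from 63 genes were at least 4-fold above the other 8 libraries in both (0.28% of all). Of these 173, 152 had more RPKM in the seminal vesicle than in spermatids. Cuticle collagen 12, AgB01_g561 (scaffold AgB01, 8738397 to 8741620, minus strand), showed the largest difference among described genes called higher, 12.82. It had 7955.1 RPKM in spermatids, 0.1 RPKM in the oocyte and 14536.2 RPKM in the seminal vesicle. The overlapping gene AgB01_g560 on the opposite strand, named cuticle collagen 99, had 6063.5 RPKM in spermatids and 0.7 RPKM in the oocyte. The sources do not say whether counting used strand, so the 2 genes cannot be told apart as sources of reads.

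Secreted and binding proteins were also high in both libraries. The lectin AgR011_g190, of a family that binds sugars, had 3879.7 RPKM in spermatids and was listed at 0 in the oocyte. Brevican-named AgR017_g206 had 872.3 RPKM in spermatids and was listed at 0 in the oocyte. Transthyretin-like protein 5, AgR006_g018, had 1006.6 RPKM in spermatids and 0.4 RPKM in the oocyte, with 2725.3 in the seminal vesicle and 402.3 after meiosis, so that it lies outside both counts above. A trypsin-family protease, AgR004_g242, had 277.9 RPKM in spermatids and 0.1 RPKM in the oocyte. All 4 genes had more RPKM in the seminal vesicle than in spermatids, from 389.6 for the protease to 6059.0 for the lectin. Cecropin-P2, an antibacterial peptide of Ascaris (AgB19_g013), had 129.0 RPKM in spermatids, 0.3 RPKM in the oocyte and 465.2 RPKM in the seminal vesicle.

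The spermatid library also held transcripts at least 4-fold above each of the other 9 libraries, 202 from 94 genes (0.327%). Without 7 transcripts that were listed at 0 in the seminal vesicle while another isoform of their gene stood at 10 RPKM or more there, 195 transcripts from 88 genes were left. Cuticle genes, which build the collagen coat of a nematode, supplied 48 of these 195 transcripts from 19 genes (24.6%), against 0.856% of all transcripts. The putative cuticular collagen AgR049_g018 had 1355.7 RPKM in spermatids and 0.5 RPKM in the oocyte, and its highest value elsewhere was 11.0 in early pachytene. Cuticle collagen 34, AgR031_g062, had 1193.4 RPKM in spermatids and 0.5 RPKM in the oocyte, with 20.2 in the seminal vesicle. Epicuticlin, a protein of the cuticle surface (AgB12_g029), had 451.5 RPKM in spermatids and 0.2 RPKM in the oocyte. The median over the 19 genes was 308.0 RPKM in spermatids, and the highest of the other 9 libraries was a median 11.0 RPKM.

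A subset of the cuticle markers was high in spermatids, while most of the list was near 0 in both libraries. Of all 529 collagen and cuticle transcripts, 73 from 26 genes were higher in spermatids (13.8%, against 3.19% of all transcripts). On the same list 21 from 8 genes were lower (3.97%, against 5.22%), and 12 were shared. Without overlaps on the opposite strand, 24 of 281 transcripts were higher and 10 lower. Their summed level was 71366.0 RPKM in spermatids and 2312.8 RPKM in the oocyte. Without AgB01_g560 and AgB01_g561 the sum was 15540.1 RPKM in spermatids and 2308.7 RPKM in the oocyte. Their median difference was 0.0 on the log2 scale, the median level was 0.2 RPKM in spermatids and 0.3 RPKM in the oocyte, and 175 were listed at 0 in spermatids and 151 in the oocyte. Of the 73 higher transcripts, 55 peaked in spermatids and 16 in the seminal vesicle. The part of cuticle-forming cells in the spermatid values was not tested.

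Other genes stood out in spermatids in the same way. The antigen OV-17, named after a protein of Onchocerca, was higher for all 3 of its genes, led by AgR006_g149 with 1254.8 RPKM in spermatids and 0.4 RPKM in the oocyte. Myoglobin, an oxygen-binding protein (AgR026_g093), had 545.9 RPKM in spermatids and 1.1 RPKM in the oocyte, with 53.2 in the seminal vesicle. Asparagine synthetase, AgB13X_g025, had 369.0 RPKM in spermatids and 1.0 RPKM in the oocyte, and reached no more than 2.0 in any other library. Lectins added 12 transcripts of 7 genes, among them AgR005_g097 with 343.8 RPKM in spermatids and 0.1 RPKM in the oocyte. None of the 202 transcripts belonged to a gene of the eliminated DNA, nor did any of the 136 that stood apart in the oocyte, against 3.73% of transcripts at 10 RPKM or more in either library.

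A smaller group was as high in the post-meiotic region as in spermatids and low in the seminal vesicle between them. It held 191 of the 1970 higher transcripts (9.7%), from 82 genes that lay within 2-fold of the post-meiotic value and at least 4-fold above the seminal vesicle. The most abundant transcript of the spermatid library belonged here, a model of 18502 nucleotides named dyslexia-associated protein (AgB01_g790). It had 39946.6 RPKM in spermatids, 661.4 RPKM in the oocyte, 30822.3 after meiosis and 572.8 in the seminal vesicle. RPKM multiplied by the length in kilobases, a measure of its reads at equal depth, came to 739092.0 in spermatids and 12237.2 in the oocyte. By that measure this model alone would take up most of the depth of the spermatid library, but a small part of that of the oocyte. Whether the value reports a message of this gene was not tested, nor was its effect on the other spermatid values.

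Genes on other scaffolds followed the same course. Ribosomal S6 kinase 2 alpha, AgR035X_g089, had 15939.9 RPKM in spermatids and 14.0 RPKM in the oocyte, and its transcript was listed at 0 in the seminal vesicle. Staufen, which binds double-stranded RNA (AgR002_g166), had 6705.1 RPKM in spermatids and 104.9 RPKM in the oocyte. The zinc finger gene AgE05_g022 had 2457.6 RPKM in spermatids and 0.9 RPKM in the oocyte. Across these, the PH-domain gene AgR050_g018 and the glucose transporter AgB04_g359, spermatids stood at 1.24 to 1.34 times the post-meiotic value. They were picked from a group set by lying within 2-fold of that value, so the choice itself limits the range. Ratios of the rest of the group are not given. Whether these models share a repeated sequence was not tested, and no genome was used here.

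**Figure D2:**
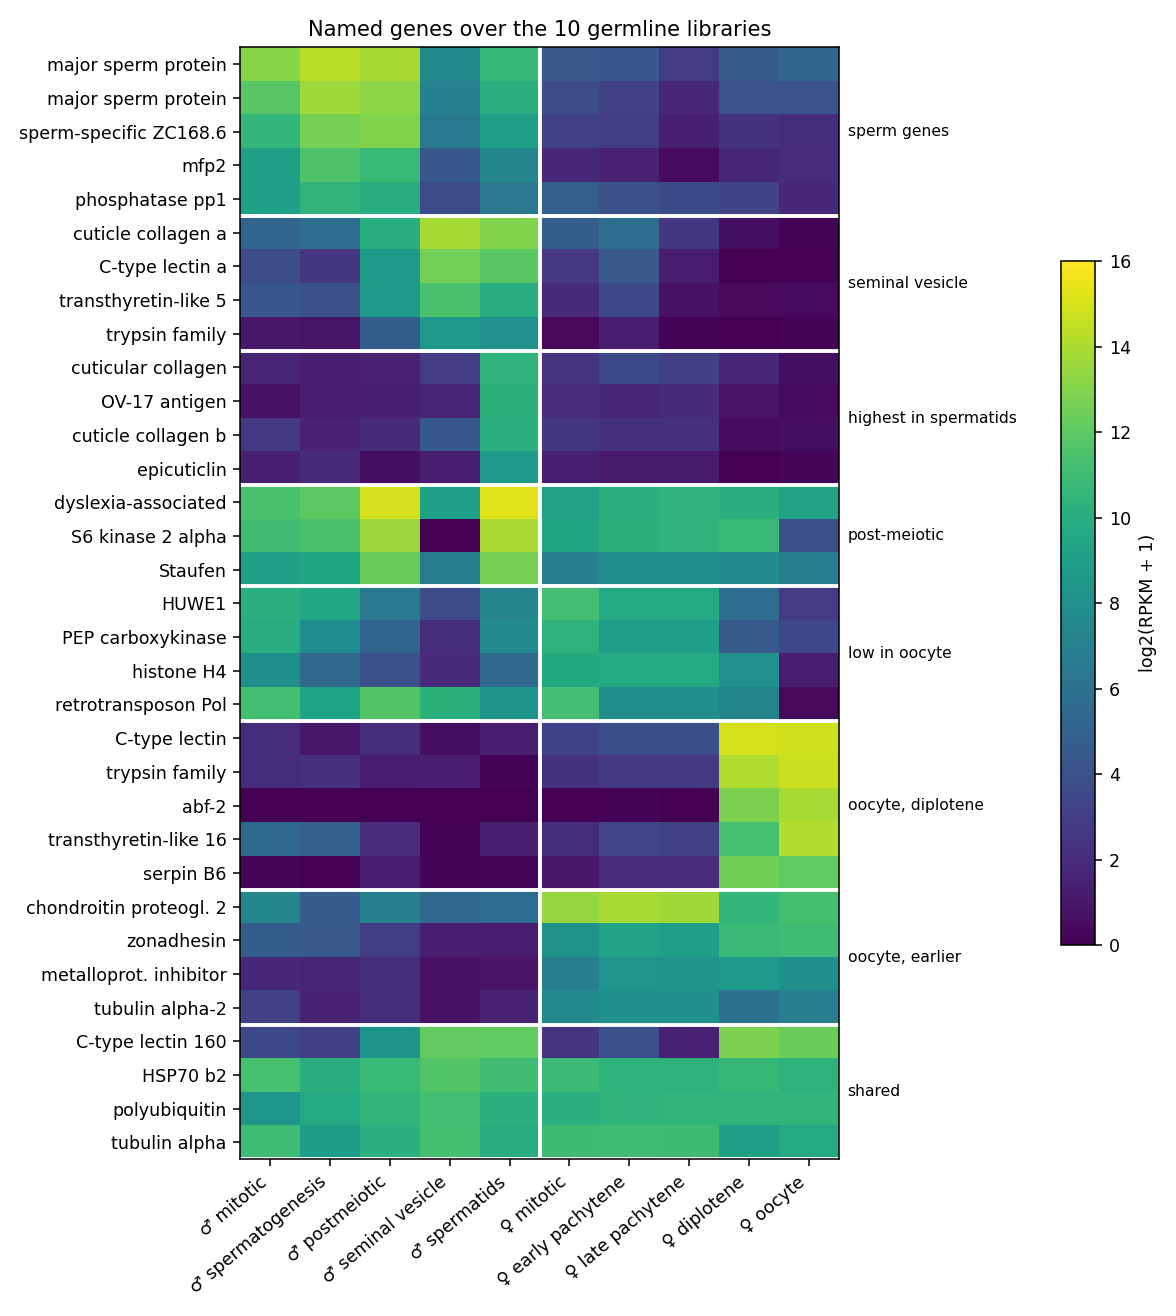
Levels of 33 named genes (rows, grouped as named on the right) in the 10 germline libraries (columns, male then female, in order along each gonad), coloured by log2(RPKM + 1). Sperm genes fade before spermatids, a group with cuticle genes stands out in the spermatid column, and lectins, proteases and abf-2 appear in diplotene and oocyte.

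Of what was lower in spermatids, much was at a like level in diplotene, the region before the oocyte. Of the 3230 lower transcripts, 1418 peaked in the oocyte (43.9%), 636 in early pachytene (19.7%) and 500 in diplotene, and 1793 lay within 2-fold of diplotene (55.5%). Diplotene and oocyte together stood at least 4-fold above the other 8 libraries for 357 transcripts of 139 genes (0.577%). The oocyte by itself stood as far above the other 9 for 136 transcripts of 83 genes (0.22%). In the male, 1076 of the 1970 higher transcripts stood at least 4-fold higher in spermatids than in the seminal vesicle (54.6%) and 531 than in the post-meiotic region (27.0%). In the female, 499 of the 3230 lower ones stood at least 4-fold higher in the oocyte than in diplotene (15.4%) and 1099 than in late pachytene (34.0%).

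The most abundant oocyte message has no descriptive annotation, and those after it are named for a lectin and a protease. AgR040X_g056, of 517 nucleotides, had 0.6 RPKM in spermatids and 159522.3 RPKM in the oocyte, with 48638.2 in diplotene. A lectin, AgR019X_g187, had 1.5 RPKM in spermatids and 29213.4 RPKM in the oocyte. Trypsin-family AgB03_g445, a short model of 352 nucleotides, had 0.1 RPKM in spermatids and 26821.0 RPKM in the oocyte, a difference of -14.57. A homolog of abf-2, an antibacterial peptide of Caenorhabditis, was listed at 0 in spermatids and had 15664.7 RPKM in the oocyte (AgR032_g086). Diplotene held the lectin, the protease and the peptide at 32287.7, 17332.5 and 7299.6 RPKM. None of these 3 passed 14 RPKM in any earlier female library or in any male one.

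Transthyretin-like proteins, a family of small secreted proteins expanded in nematodes, were often lower in spermatids. Of 115 transcripts, 47 from 13 genes were lower in spermatids (40.9%), 8 from 3 genes were higher and 1 was shared. AgR004_g294, transthyretin-like protein 16, had 1.6 RPKM in spermatids and 18622.5 RPKM in the oocyte, against 2545.5 in diplotene. Its neighbour AgR004_g295 had 6.1 RPKM in spermatids and 11508.8 RPKM in the oocyte. AgR039_g051 and AgR039_g052, both named transthyretin-like protein 15 and overlapping on opposite strands, had 1.0 and 1.4 RPKM in spermatids, against 4295.5 and 4697.9 RPKM in the oocyte. Without overlaps on the opposite strand, 13 of 59 transcripts were lower and 8 higher, with a median difference of 0.14, against -0.92 over the whole family. The summed level of the family was 4891.9 RPKM in spermatids and 111431.0 RPKM in the oocyte.

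No transcript on the list of protease inhibitors was called higher in spermatids. Of 75 transcripts, 33 from 12 genes were lower (44.0%) and 7 were shared. With values summed per gene, 13 genes were lower and 1 was higher. The chymotrypsin/elastase isoinhibitor gene AgR005_g355 had 2 transcripts called higher, which are not on the list, 1 lower and 3 shared. Serpin B6, AgR031_g028, of a family that traps serine proteases, had 0.2 RPKM in spermatids and 4388.7 RPKM in the oocyte, with 5960.7 in diplotene. The metalloproteinase inhibitor AgR008_g221 had 0.8 RPKM in spermatids and 264.4 RPKM in the oocyte, and was already at 317.3 in early pachytene. Serine proteases had 10 transcripts higher and 17 lower, a balance that turned to 10 and 8 when sums without the 100 highest transcripts were made equal, and likewise without overlaps on the opposite strand. Venom allergen 3, a secreted protein (AgR049_g050), was listed at 0 in spermatids and had 3459.1 RPKM in the oocyte.

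No eggshell gene was higher in spermatids. Of 91 transcripts named for chondroitin proteoglycans or related eggshell products, 46 from 18 genes were lower (50.5%) and 1 was shared. Chondroitin proteoglycan 2, a component of the nematode eggshell (AgR005_g202), had 51.2 RPKM in spermatids and 2457.1 RPKM in the oocyte. It had been at 15189.3 in early pachytene, and 37 of the 46 transcripts peaked there. The chondroitin proteoglycan 3 genes AgR005_g430 and AgR005_g431 lie side by side and had 15.9 and 8.2 RPKM in spermatids, against 1587.3 and 1419.8 RPKM in the oocyte. The ovarian abundant message AgR031_g018 had 12.6 RPKM in spermatids and 806.3 RPKM in the oocyte.

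Zonadhesins are large proteins named after a mammalian sperm protein that binds the egg coat. Of 46 zonadhesin transcripts from 11 genes, 29 from 5 genes were lower in spermatids and 1 was higher. The lower ones peaked in the oocyte (8), in diplotene (16) or in late pachytene (5). On the list with lipoprotein receptors, 43 of 110 transcripts were lower (39.1%), and 13 receptor transcripts among them peaked in the male post-meiotic region. The higher one, AgR034_g070, had 17.3 RPKM in spermatids and 1.1 RPKM in the oocyte. AgR006_g327 had 1.4 RPKM in spermatids and 2071.7 RPKM in the oocyte. It lies in a row of 5 neighbouring genes, AgR006_g327 to AgR006_g331, that were all called lower and of which 4 are named zonadhesin. The last of them, AgR006_g331, had 1.6 RPKM in spermatids and 12.9 RPKM in the oocyte, after 884.6 in late pachytene. AgR058_g006, another zonadhesin, was listed at 0 in spermatids and had 1141.6 RPKM in the oocyte and 774.5 in diplotene, and was at 0 in the remaining 7 libraries. Yolk protein genes gave no such signal: the 9 vitellogenin transcripts reached at most 0.8 RPKM in spermatids and 0.2 RPKM in the oocyte.

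Few cell cycle transcripts reached the level that a call needs. Of 378 on the list, 36 stood at 10 RPKM or more in either library, and 19 of these 36, from 7 genes, were lower. Over the whole list that is 5.03%, against 5.22% of all transcripts. Of all transcripts at 10 RPKM or more in either library, 25.6% were lower. A single cell cycle transcript, 1 of the list, was higher, and at a minimum of 100 RPKM none was lower and 1 higher. The regulatory subunit of cyclin-dependent kinases, AgR004_g037, had 0.7 RPKM in spermatids and 39.8 RPKM in the oocyte. Cyclin A, AgB05_g090, had 1.2 RPKM in spermatids and 16.5 RPKM in the oocyte. Among tubulins and microtubule motors, 32 of 437 transcripts were lower (7.32%), none was higher and 52 were shared. Tubulin alpha-2, AgB01_g581, had 1.9 RPKM in spermatids and 115.7 RPKM in the oocyte, and kinesin-2, AgB02_g486, had 1.2 RPKM in spermatids and 39.3 RPKM in the oocyte. Of 216 DNA replication transcripts, 26 reached 10 RPKM in either library. Of the 216, 6 were lower (2.78%, below the 5.22% of all) and none was higher. Ribonucleotide reductase, which makes DNA precursors (AgR006_g323), had 1.7 RPKM in spermatids and 25.9 RPKM in the oocyte.

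Muscle proteins went both ways. Tropomyosin, which regulates muscle filaments, reached 34.0 RPKM in spermatids and 236.8 RPKM in the oocyte, and all 8 of its transcripts, from 1 gene, were lower. Myosin heavy chain AgR040X_g053 had 31.5 RPKM in spermatids, 513.6 RPKM in the oocyte and 667.7 RPKM in diplotene. The myosin light chain AgB11_g048 had 12.9 RPKM in spermatids and 204.1 RPKM in the oocyte. Titin-named transcripts had 9 higher and 1 lower, and paramyosin none of either with 4 shared. Myosin-8, AgB01_g562, which lies beside the collagen genes of AgB01, had 115.3 RPKM in spermatids and 0.9 RPKM in the oocyte. Over the whole list of 560 actin and muscle transcripts, 45 were lower (8.04%), 19 higher (3.39%) and 127 shared. Summed levels were 38203.2 RPKM in spermatids and 33737.1 RPKM in the oocyte, 37 were listed at 0 in spermatids and 27 in the oocyte, and the part of sheath or duct muscle was not tested.

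Of the oxidative phosphorylation messages called higher or lower, nearly all were lower in spermatids. Of 258 transcripts on the list, 31 from 21 genes were lower, 1 was higher and 66 were shared. The lower share was above the 5.22% of all transcripts, and the higher share was below the 3.19% of all. Cytochrome b, a subunit of the respiratory chain (AgE51_g003), had 7.5 RPKM in spermatids and 378.7 RPKM in the oocyte, and the ATP synthase subunit a transcript of AgE51_g004 had 17.3 RPKM in spermatids and 928.5 RPKM in the oocyte. On the same scaffold, the unnamed gene AgE51_g005 had 3201.8 RPKM in spermatids and 64.8 RPKM in the oocyte. Cytochrome c oxidase subunit 1, AgE51_g004, was shared at 1828.4 RPKM in spermatids and 1145.1 RPKM in the oocyte. NADH dehydrogenase chain 6, AgB02_g498, was the single higher member with 2148.9 RPKM in spermatids and 183.2 RPKM in the oocyte. Copies of mitochondrial genes lie on several scaffolds, so the origin of their reads is uncertain.

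That uncertainty touches the single cell cycle gene that was higher in spermatids. The checkpoint gene MAD2A, AgR022_g084, had 1924.3 RPKM in spermatids, 29.0 RPKM in the oocyte and between 660.2 and 3135.4 RPKM in the other 8 libraries. It lies next to AgR022_g083, a model named cytochrome c oxidase subunit 1, which had 29.8 RPKM in spermatids and 636.6 RPKM in the oocyte. Whether AgR022_g084 reports MAD2A was not tested.

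Some transcripts that were higher in spermatids were at their lowest in the oocyte once the seminal vesicle was set aside. Leaving out the seminal vesicle, 153 transcripts of 71 genes stood at least 4-fold lower in the oocyte than in each of the other 8 libraries, with all 8 at 10 RPKM or more (0.247%). The seminal vesicle was lower still for some, such as AgB17_g113 with 0.7 RPKM there and 4.0 RPKM in the oocyte. For others it was far higher, as for AgR011_g309 with 1270.0 RPKM there and 0.3 RPKM in the oocyte. Spermatids held the highest value of all 10 libraries for 28 of the 153, from 13 genes. Set by the same rule, again without the seminal vesicle, 18 transcripts of 6 genes were lowest in spermatids (0.0291%). Models named for an R2 retrotransposon supplied 17 of the 153 from 13 genes, and HUWE1, a very large ubiquitin ligase, supplied 42 from 7 genes. Of the 54 HUWE1 transcripts from 12 genes in the table, 52 were higher in spermatids and none was lower. AgE03_g001, a gene of the eliminated DNA, had 147.4 RPKM in spermatids and 5.9 RPKM in the oocyte, after 2422.0 in the female mitotic region and 52.4 in diplotene. HUWE1 accounts for 52 of the 86 ubiquitin ligase and hydrolase transcripts that were higher. How the reads were split among its copies is uncertain, and their sequences were not compared.

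Some retrotransposon, metabolic and histone genes were also low in the oocyte. Of 225 retrotransposon transcripts, 22 from 16 genes were higher (9.78%) and 6 from 2 genes were lower. AgR011_g309, named for the Pol polyprotein of an R2 element, had 307.2 RPKM in spermatids and 0.3 RPKM in the oocyte, and AgR022_g004, of the same name, had 1091.6 RPKM in spermatids and 7.4 RPKM in the oocyte. Phosphoenolpyruvate carboxykinase, an enzyme of glucose synthesis (AgB18_g052), had 190.2 RPKM in spermatids and 10.1 RPKM in the oocyte. Histone H4, AgB03_g235, had 42.9 RPKM in spermatids and 1.3 RPKM in the oocyte, against 275.4 in diplotene and 930.1 in early pachytene. Histone H3, AgR003_g376, had 26.9 RPKM in spermatids and 0.7 RPKM in the oocyte.

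Other histones were lower in spermatids. Over the list of 59 histone transcripts, 5 from 3 genes were higher, 13 from 6 genes were lower and 2 were shared. The linker histone H1.X gene AgR016_g132 had 2.9 RPKM in spermatids and 61.7 RPKM in the oocyte. Histone H2B 2, AgR003_g428, had 2.3 RPKM in spermatids and 49.2 RPKM in the oocyte. Genes named gld-1, after a translational repressor of the Caenorhabditis germline, were split as well. AgR014X_g175 had 97.7 RPKM in spermatids and 2.4 RPKM in the oocyte, whereas AgB07_g163 had 0.8 RPKM in spermatids and 49.7 RPKM in the oocyte.

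**Figure D3:**
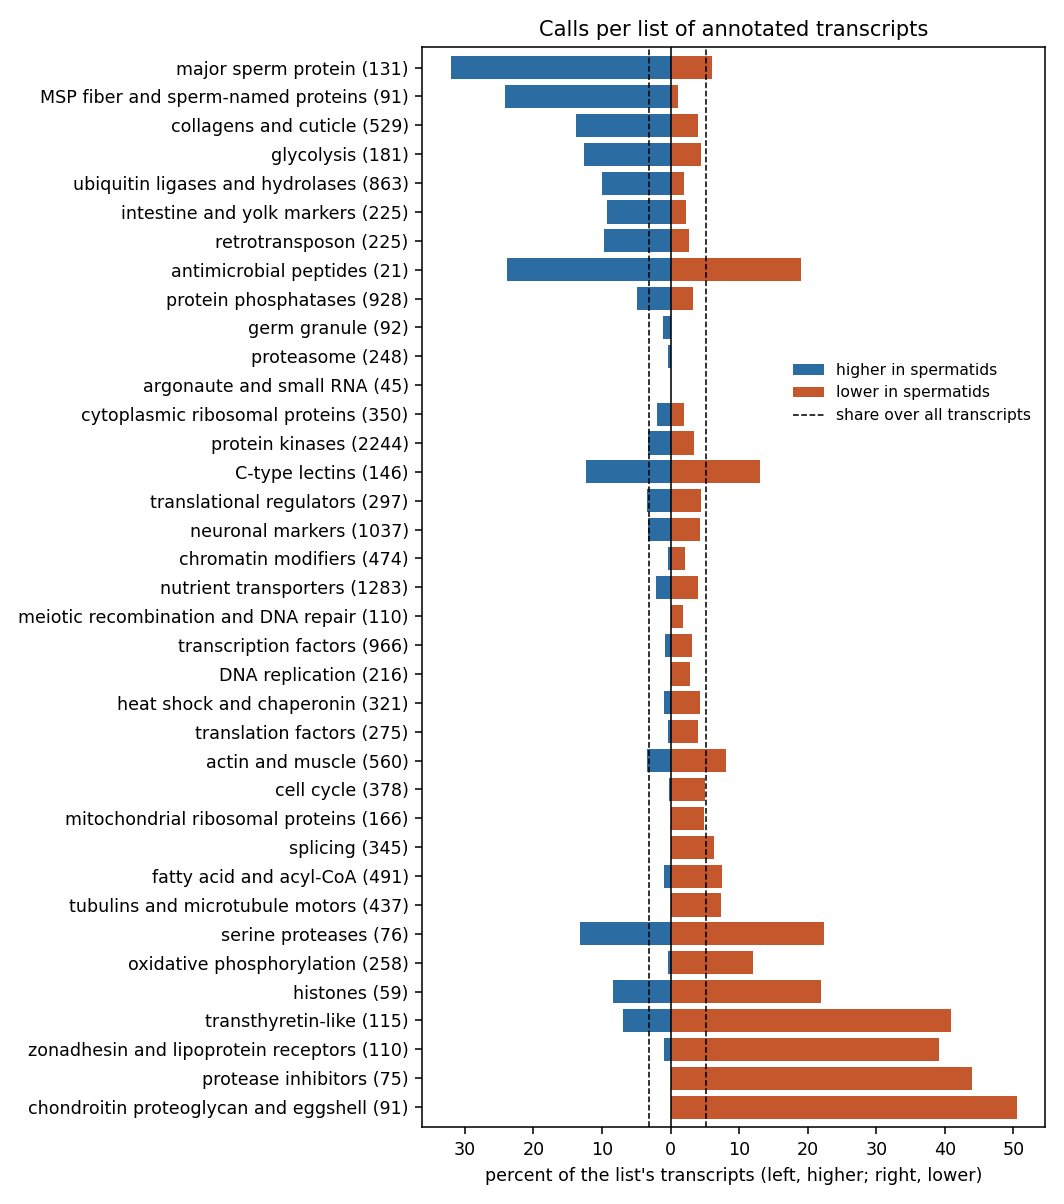
Percent of each list's transcripts called higher (left of 0) and lower (right of 0) in spermatids, with the number of transcripts in brackets; dashed lines mark the shares over all transcripts, 3.19% and 5.22%. The list for major sperm protein and MSP-named proteins reaches 32.1% higher and the eggshell list 50.5% lower, while germ granule and argonaute lists have almost no calls.

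Part of what both libraries held was present throughout the germline. Of the 2559 shared transcripts, 982 from 346 genes stood at 10 RPKM or more in all 10 libraries, which is 38.4% of the shared set and 1.59% of all. Another limit, variation of less than 4-fold over the 10, left 234 from 91 genes, 9.14% of the shared set and 0.379% of all. Cytoplasmic ribosomal proteins gave 139 shared transcripts of 350 (39.7%), with 7 higher and 7 lower, against 4.14% shared over all transcripts. Proteasome subunits gave 69 of 248 and translation factors 68 of 275. HSP70, a chaperone (AgR033_g090), had 2160.5 RPKM in spermatids and 1308.8 RPKM in the oocyte. Polyubiquitin, AgR016_g162, had 1185.9 RPKM in spermatids and 1497.1 RPKM in the oocyte, and tubulin alpha, AgR029_g066, had 1000.6 RPKM in spermatids and 888.4 RPKM in the oocyte. Actin-2, which nematode sperm do not need for crawling (AgR015_g018), had 1086.3 RPKM in spermatids and 784.2 RPKM in the oocyte.

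A minority of shared transcripts had appeared late in both sexes. In 141 transcripts of 52 genes, both libraries stood at least 4-fold above their own and the other mitotic region (0.228%). Led by level, 3 lectin genes stood first. Their models overlap each other, partly on opposite strands, so how the reads were split among them is uncertain. Of all 146 lectin transcripts 23 were shared, and without overlaps on the opposite strand 2 of 75. AgB03_g447 had 4354.0 RPKM in spermatids and 5545.0 RPKM in the oocyte, against 10.1 and 4.4 in the mitotic zones of male and female. AgB03_g440 had 4038.8 RPKM in spermatids and 3073.8 RPKM in the oocyte, and the AgB03_g439 transcript with the highest oocyte value had 12665.9 RPKM in spermatids and 25080.2 RPKM in the oocyte. Another transcript of AgB03_g439 had 17879.0 RPKM in spermatids and 19562.3 RPKM in the oocyte. The pepsin inhibitor Dit33, AgR046_g014, had 455.8 RPKM in spermatids and 764.5 RPKM in the oocyte. Cecropin-P4, AgB19_g011, had 51.9 RPKM in spermatids and 66.8 RPKM in the oocyte. A transcript of the intermediate filament gene AgR005_g108 had 720.8 RPKM in spermatids and 411.3 RPKM in the oocyte. It was the only shared one of the 11 transcripts of that gene, of which 9 were called higher in spermatids.

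The shared lectins and the oocyte trypsins sit in the same stretch of scaffold AgB03. The lectin models AgB03_g439, on the plus strand, and AgB03_g440, on the minus strand, span it and overlap the trypsin-family models AgB03_g441, AgB03_g445 and AgB03_g446. AgB03_g441, at 7221304 to 7226024 on the minus strand, had 0.8 RPKM in spermatids and 18217.7 RPKM in the oocyte. AgB03_g446, at 7246467 to 7249457 on the plus strand, had 100.9 RPKM in spermatids and 6825.2 RPKM in the oocyte. The genes on either side, AgB03_g438 and AgB03_g448, stayed at 1.0 and 0.8 RPKM in spermatids, against 0.1 and 0.5 RPKM in the oocyte. The lectins were as high in the seminal vesicle as in spermatids for AgB03_g440 and AgB03_g447, at 3560.3 and 4558.4, while the trypsins stayed at 9.5 or below there.

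**Figure D4:**
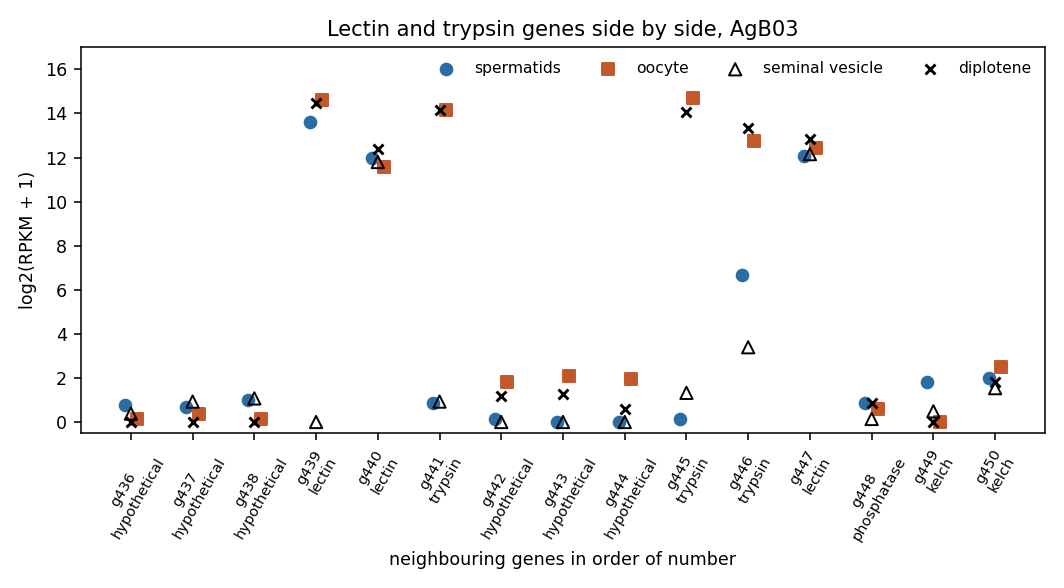
Levels of 15 neighbouring genes of scaffold AgB03 (x axis, in order of gene number, 1 transcript each) as log2(RPKM + 1) in spermatids (circles), oocyte (squares), seminal vesicle (triangles) and diplotene (crosses). The lectins g439, g440 and g447 are high in both spermatids and oocyte, the trypsins g441, g445 and g446 in oocyte and diplotene; the seminal vesicle value of g439 is that of a transcript listed at 0, while other transcripts of the gene reach 16641.7 there.

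Some neighbouring genes were called the same way. There were 55 runs of at least 3 consecutive genes called in 1 direction, 26 higher and 29 lower. How many runs the shares of called genes would give by themselves was not tested. Runs called higher included 5 genes from the mitochondrial carrier AgR003_g353, with values up to 155.1 RPKM in spermatids and 2.0 RPKM in the oocyte, and the 4 genes from AgR011_g189 that hold the lectins named above. Runs called lower included the 4 genes from AgR032_g084, which hold small heat shock genes and abf-2. The highest values in that run were 1.0 RPKM in spermatids and 15664.7 RPKM in the oocyte, the latter that of abf-2. Small heat shock protein OV25-2, AgB02_g139, had 0.4 RPKM in spermatids and 36.7 RPKM in the oocyte on another scaffold. Overlapping models share reads, so members of a run are not independent.

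The deposited marks differed between the sets. With 1 transcript per gene, a spliced leader was marked in 35.2% of 707 genes higher in spermatids, 65.1% of 1126 genes lower and 72.9% of 785 shared genes, against 62.3% of the 4062 genes at 10 RPKM or more in either library. The mark for a capped end that is not trans-spliced, with no leader mark on the same transcript, was on 22.2% of the higher genes, 7.02% of the lower and 5.1% of the shared ones, against 8.64% at 10 RPKM or more in either. Genes of the eliminated DNA made up 8.2% of the higher set, 2.93% of the lower set and 1.78% of the shared set, against 3.87% at 10 RPKM or more in either. Genes on X scaffolds made up 14.6% of the higher set, 21.0% of the lower set and 24.2% of the shared set, against 21.5%. No descriptive name was carried by 31.9% of higher, 30.0% of lower and 9.5% of shared transcripts. The share was 19.8% of transcripts at 10 RPKM or more in either library and 28.0% of all transcripts.

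**Figure D5:**
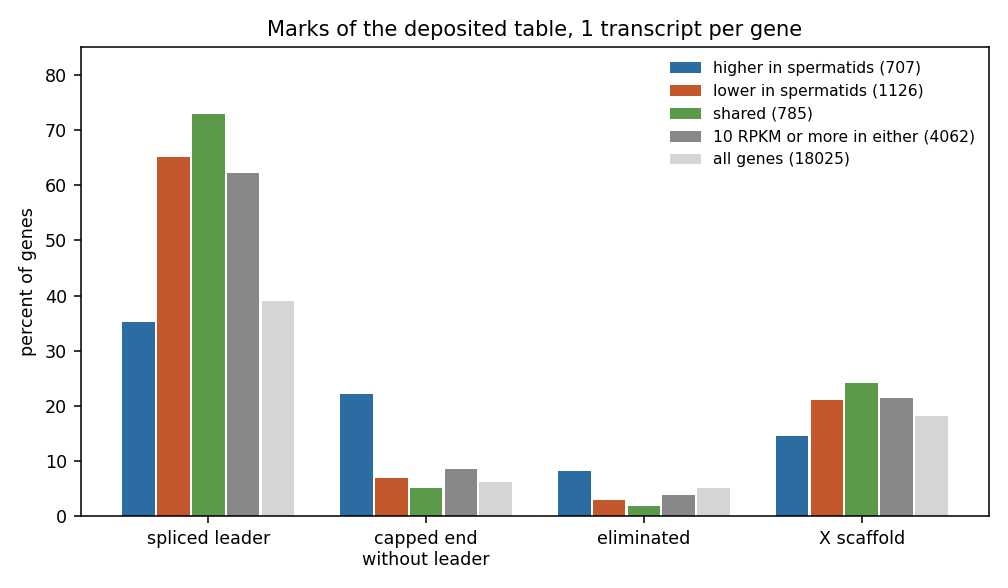
Percent of genes, 1 transcript each, that carry each mark of the deposited table, for genes higher, lower and shared, for genes at 10 RPKM or more in either library and for all genes (numbers in brackets; bars have no error because each is a share of 1 fixed set). Genes higher in spermatids have the fewest spliced leaders, 35.2%, and the most eliminated genes, 8.2%.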

How the data were processed

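RNA was extracted with Trizol, depleted of ribosomal RNA with a human, mouse and rat kit and made into libraries with TotalScript, per the labels' protocols. TopHat2 and Cufflinks were used, per the submitters' processing notes, with no version given. The sources state neither genome build, annotation nor strand. A single table was deposited by the authors, with 1 row per transcript and 1 column per region. No unit is named; the deposited values were read as RPKM, because column sums differ and low values step with the inverse of transcript length. Summed over transcripts, RPKM times length came to 3.78 and 3.08 times the depth in spermatids and oocyte, so reads were counted in several isoforms. Libraries labelled mixed are not analysed here, and 0 value columns lack a sample.

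Differences of log2(RPKM + 1) and calls were computed in Python 3.11.15 with pandas 2.3.3, and the code was checked on simulated data. Lists were 37 sets of words searched in the deposited annotation. Named were the 15 largest differences each way among genes with a descriptive annotation, the 10 most abundant shared genes, the 10 most abundant described genes of each library and up to 4 called members per list (2 where none was called), 1 transcript per gene. Unnamed genes, rows of neighbours, markers, and genes that lead a set were added after values were seen. Members and lists were chosen with earlier results of these data known. No sequences were used.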

Additional observations from a re-analysis of the deposited data

How the results depend on the processing

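No paired analysis was possible because each region had 1 library, and for the same reason none could be left out. Counts are given as higher, lower and shared transcripts (1970, 3230 and 2559 as reported). With no minimum they were 3177, 5076 and 39484, and with a minimum of 100 RPKM 409, 435 and 364. With 1 marked transcript per gene they were 604, 986 and 709. Values summed per gene gave 1029 higher and 1658 lower genes, and a 2-fold rule 3457 higher and 5275 lower transcripts. Leaving out transcripts that overlap a gene on the opposite strand, an alternative chosen after seeing the data, kept 42869 transcripts and gave 1111 higher and 1524 shared. In each of these, fewer transcripts are tested or the limits of a call are wider or narrower. With a pseudocount of 0.1, median-ratio scaling, equal sums without the 100 highest, zeros left out, or values under 1% of the highest library set to 0, counts lay between 1802 and 2343 higher, 2713 and 3591 lower, and 2518 and 2559 shared. No named gene changed direction under the settings that could be run for it, which were run for 157 genes except 86 with 1 marked transcript, 87 without opposite-strand overlap, 122 with equal sums and 141 without zeros. However, 67 were no longer called at 100 RPKM, 6 after median-ratio scaling and 4 when summed per gene. Low values are limited by the single decimal of the table.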
